A study of Mus musculus with 8 samples.

Results

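Of the 6425 peaks in a table of chromatin accessibility in mouse kidney tubuloids, 1648 carried no gene and no distance to a transcription start site, and these 1648 unassigned peaks are described here. They were taken as the rows whose distance cell was empty, and all other gene cells in those rows were empty too. The remaining 4777 peaks had a gene and are called assigned. Tubuloids are epithelial structures grown in Matrigel, here from renal cortex of wild-type mice, and the assay was ATAC-seq, which reads out open DNA through adapters that the Tn5 transposase places there. Vehicle-treated tubuloids gave 4 libraries and tubuloids exposed to myoglobin, the haem protein of muscle, gave 4, all at 12 h with 50000 cells per reaction. No label ties a library to a mouse, so the p-values measure the spread between these libraries only. In such bulk samples, fewer cells of a type and less open DNA per cell cannot be told apart.

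Open chromatin away from the annotated 5′ ends of genes commonly marks enhancers, insulators, and starts that only some transcripts of a gene use. Enhancers are bound by sequence-specific factors and can act on genes far along the chromosome, so the nearest gene to such a peak need not be its target. Open promoters are often rich in CpG and in GC boxes, which SP1 family factors bind. In the nephron, many enhancers are open in a single tubule segment only.

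The absence of an assigned gene did not mean the absence of a known start. RefSeq starts (GRCm38.p6, the assembly that mm10 names) were compared with 1596 of the unassigned peaks, and 203 of these (12.7%) had their centre within 500 bp of one, against 3438 of 4658 assigned peaks (73.8%). Of the 203, 130 lay at a start more than 500 bp inside the span of its gene, at a median of 14644 bp from the end of the span. The other 73 lay at a start no more than 500 bp inside the span, of a coding gene in 37 cases. The sequences of 5 of the 203 starts are shown, because the peaks there overlap the bases that RefSeq places before a transcript. Only the Phyhipl start is at the end of its span. Those of Aktip, Slc6a19, Ptprs and Iffo2 are inner starts, 1467, 8144, 14340 and 44172 bp inside. The peak covers all 250 bases at Ptprs and Aktip, 209 at Iffo2, 165 at Slc6a19 and 145 at Phyhipl, and at Phyhipl and Iffo2 the bases next to the start are outside the peak. Each line gives the 250 bases upstream of the start, 5′ to 3′ on the strand of the gene, and capitals mark 3 motifs searched on either strand. These were the GC box, spelled GGGCGG, the short CCAAT box, and the ETS motif, which was spelled CCGGAAG.
Phyhipl, chr10:70599292-70599541, minus strand: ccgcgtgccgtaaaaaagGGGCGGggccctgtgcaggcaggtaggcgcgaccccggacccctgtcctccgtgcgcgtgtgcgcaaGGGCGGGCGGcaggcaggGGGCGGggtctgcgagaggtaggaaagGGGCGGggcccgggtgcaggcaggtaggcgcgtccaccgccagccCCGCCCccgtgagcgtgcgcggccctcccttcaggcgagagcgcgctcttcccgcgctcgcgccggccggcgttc
Ptprs, chr17:56462222-56462471, minus strand: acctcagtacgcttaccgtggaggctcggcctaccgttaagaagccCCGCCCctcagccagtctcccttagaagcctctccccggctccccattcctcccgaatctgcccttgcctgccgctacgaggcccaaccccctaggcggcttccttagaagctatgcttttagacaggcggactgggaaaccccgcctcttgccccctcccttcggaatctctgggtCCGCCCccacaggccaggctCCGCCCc
Aktip, chr8:91134028-91134277, minus strand: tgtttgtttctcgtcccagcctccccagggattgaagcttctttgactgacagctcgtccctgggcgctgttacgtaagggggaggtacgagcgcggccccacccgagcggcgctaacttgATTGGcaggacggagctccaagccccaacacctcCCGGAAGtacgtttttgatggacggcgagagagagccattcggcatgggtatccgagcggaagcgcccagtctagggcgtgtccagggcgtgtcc
Iffo2, chr4:139574470-139574719, plus strand: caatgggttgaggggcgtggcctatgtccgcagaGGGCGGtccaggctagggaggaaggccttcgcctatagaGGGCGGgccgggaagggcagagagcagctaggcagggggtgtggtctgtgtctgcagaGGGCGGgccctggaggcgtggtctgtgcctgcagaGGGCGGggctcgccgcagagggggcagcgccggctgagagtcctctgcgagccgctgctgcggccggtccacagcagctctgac
Slc6a19, chr13:73692637-73692886, minus strand: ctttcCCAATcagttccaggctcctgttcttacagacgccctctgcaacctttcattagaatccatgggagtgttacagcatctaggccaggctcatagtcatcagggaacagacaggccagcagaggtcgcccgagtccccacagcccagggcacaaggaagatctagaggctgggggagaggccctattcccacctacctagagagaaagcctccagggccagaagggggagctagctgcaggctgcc

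The Phyhipl window held 6 GC box matches, some of them overlapping, and 76.8% G and C, and its ratio of observed to expected CpG was 0.96. This start is at the end of the Phyhipl span, and its peak is the only 1 of the 5 that passed the test of myoglobin against vehicle. The Ptprs window held 3 GC boxes and the Iffo2 window 4, while the Aktip window held 1 CCAAT box and 1 ETS motif. The Slc6a19 window held 1 CCAAT box and a CpG ratio of 0.14, the lowest of the 5. Slc6a19 encodes a neutral amino acid transporter of the proximal tubule brush border, Ptprs a receptor tyrosine phosphatase, Aktip a protein that binds the kinase AKT, and Iffo2 a protein of the intermediate filament family.

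Across all RefSeq windows of 300 bases that an unassigned peak overlapped (211 windows, 182 peaks), the upstream 250 bases had a median GC content of 62.8%, against 63.6% in 4130 windows at assigned peaks and 52.4% in all 32817 windows. The median CpG ratio was 0.69, 0.80 and 0.37 in the same order. A GC box on either strand was present in 123 of the 211 windows (58.3%), compared with 74.1% at assigned peaks and 32.7% of all windows. CCAAT stood in 42.7%, 48.4% and 33.8%, and the ETS motif in 12.3%, 16.9% and 6.90%. The AP-1 motif TGANTCA stood in 18 windows (8.53%), against 3.54% at assigned peaks and 6.75% of all, and TATAAA stood in 4.74%, 3.12% and 12.4%. The E-box CACGTG stood in 7.58%, 8.77% and 6.02%, and the cAMP response element TGACGTCA in 3 windows (1.42%), 3.32% and 1.55%. The windows at unassigned peaks lay between the assigned and the full set for GC content, CpG and 5 of the 7 motifs. The exceptions were the AP-1 motif, above both sets, and the cAMP response element, below both. Matches are descriptions of letters, and overlapping windows of 1 gene are not independent.

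Unassigned peaks were lower and narrower than assigned peaks. Height is given as the mean over the 8 libraries of the deposited value, which looks like a read number scaled between libraries and rounded. The median height was 12.8 for unassigned peaks (lower and upper quartile 8.38 and 19.9, range 1 to 83.5) and 17.1 for assigned peaks (10.8 and 26.5, up to 129). A height of at least 50 was reached by 20 unassigned peaks (1.21%) and 227 assigned peaks (4.75%), and 70 unassigned peaks (4.25%) were under 5, against 114 (2.39%). The median width was 171 bp (quartiles 127 and 240, range 91 to 1441), against 217 bp (149 and 305), and 21 unassigned peaks (1.27%) were wider than 500 bp, against 204 (4.27%).

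Height followed width in both sets. Across unassigned peaks Spearman's rho between width and height was 0.84 and Pearson's r 0.77, and across assigned peaks they were 0.88 and 0.87. These are descriptions across peaks of the same libraries, and a wider interval collects more reads by construction. Compared at like width, the sets were close. At 91 to 141 bp the medians were 7.63 (558 unassigned) and 8.25 (1049 assigned), and at 142 to 203 bp they were 12.5 (473) and 13.1 (1133). At 204 to 289 bp they were 19.3 (382) and 20.3 (1226), and at 290 bp and more 30.9 (235) and 32.9 (1369). The unassigned median was the lower in each of the 4 width classes. The median value per 100 bp was 7.32 and 7.98.

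**Figure D1:**
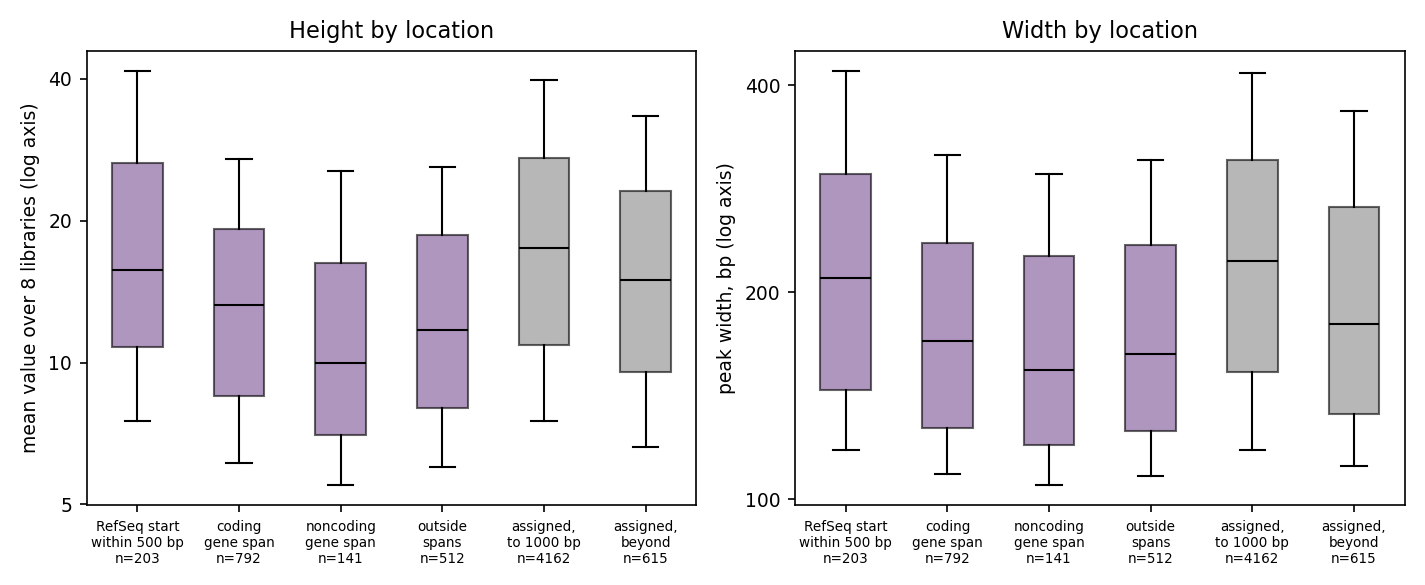
Height (mean deposited value over 8 libraries, log axis) and width (bp, log axis) of unassigned peaks by location (purple) and of assigned peaks by distance to the start (grey); boxes span the quartiles with the median as a line, and whiskers the 10th and 90th percentiles. Unassigned peaks within 500 bp of a RefSeq start had a median height of 15.8. This was above the 3 other unassigned classes (10 to 13.3) and below assigned peaks within 1000 bp (17.5). The 52 unassigned peaks on chromosome 18 had no start distance and are in the other unassigned classes.

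Height differed with location among the unassigned peaks themselves. The 203 peaks at a RefSeq start had a median height of 15.8 and width of 210 bp. The 792 others inside the span of a coding gene (48.1% of 1648) had 13.3 and 170 bp. The 141 inside the span of only a noncoding gene (8.56%) had 10 and 154 bp. The 512 outside any coding or noncoding span (31.1%) had 11.8 and 162.5 bp. The 52 peaks on chromosome 18, whose distances to RefSeq starts were not analysed, are counted among these others, even where they may lie at a start. Of the 20 unassigned peaks with a height of at least 50, 13 were at a RefSeq start. Within each library, the median log2(value + 1) at starts exceeded that of the other unassigned peaks by 0.42 ± 0.12 (SD, n = 8, range 0.28 to 0.66), in 8 of 8 libraries. The exact two-sided sign-flip test gave p = 0.0078, the smallest that 8 libraries allow, and the same after adjustment over 2 such tests. The same peaks form the classes in every library, so this p shows only that the gap repeated between libraries. It cannot tell whether peaks at starts differ in height from others in general. Assigned peaks at more than 1000 bp from their start, 615 in all, had a median height of 15 and width of 180 bp, so the start class of the unassigned peaks stood close to them in median height.

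The tallest unassigned peaks were open in all 8 libraries. The tallest of them was in Ssc4d, which encodes a scavenger receptor cysteine-rich protein (chr5:135962373-135962980), with values of 78, 97, 84 and 89 in vehicle replicates 1 to 4 and 84, 60, 91 and 85 in myoglobin replicates 1 to 4. The next was in Rxra, the retinoid X receptor alpha that pairs with many nuclear receptors (chr2:27744676-27745145), with 68, 80, 85 and 82 in vehicle and 105, 73, 90 and 61 in myoglobin. At both peaks the groups overlapped, and the lowest library was a myoglobin library.

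A peak in Kat6b, a histone acetyltransferase (chr14:21500403-21500893), lay 863 bp from a RefSeq start and had 77, 80, 85 and 76 in vehicle and 79, 92, 75 and 67 in myoglobin. A peak of 814 bp in Acaca, the acetyl-CoA carboxylase of fatty acid synthesis (chr11:84179390-84180204), had 71, 70, 78 and 64 in vehicle and 69, 73, 67 and 75 in myoglobin. The Ptprs peak whose upstream sequence is printed above (chr17:56461915-56462674, 759 bp) had 69, 70, 79 and 66 in vehicle and 70, 66, 63 and 88 in myoglobin. All 3 kept overlapping groups, and their means over all libraries lay between 70.9 and 78.9.

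Farther down the same order, the peak at the start of the noncoding gene D130051D11Rik (chr15:85634424-85635072) had 74, 62, 78 and 61 in vehicle and 71, 54, 88 and 64 in myoglobin. Its nearest coding gene, at 52603 bp, was Wnt7b, a Wnt ligand of the collecting duct. The Aktip peak (chr8:91133921-91134426) had 76, 67, 68 and 70 in vehicle and 59, 46, 56 and 68 in myoglobin, overlapping only at 67 and 68. The Iffo2 peak (chr4:139574268-139574678) had 49, 62, 63 and 67 in vehicle and 41, 66, 52 and 72 in myoglobin. Outside coding and noncoding gene spans the tallest peak lay 51703 bp from Apip, which encodes an enzyme of methionine salvage (chr2:103144352-103144760). That peak had 51, 54, 63 and 47 in vehicle and 47, 54, 60 and 53 in myoglobin.

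Width and height parted company at a few peaks. The widest, of 1441 bp in the vomeronasal receptor gene Vmn2r91 (chr17:18090823-18092264), had only 10, 6, 8 and 17 in vehicle and 9, 9, 15 and 6 in myoglobin. The next widest, of 1273 bp and 35047 bp from Sh3bgrl (chrX:109059087-109060360), had 10, 6, 8 and 7 in vehicle and 10, 0, 7 and 7 in myoglobin. The narrowest unassigned peaks measured 91 bp. Among these was a peak 510742 bp from Myc, the oncogenic transcription factor (chr15:62501103-62501194), with 2, 4, 3 and 8 in vehicle and 7, 3, 6 and 6 in myoglobin.

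Most unassigned peaks were in genes. By gene spans, 962 (58.4%) lay inside at least 1 coding gene, in 816 different genes. Of the rest, 161 lay inside a noncoding gene only and 525 in no span of the coding or noncoding genes. Pseudogenes were counted separately over all these peaks, and 5 lay inside one. Exons and introns were not told apart here. The 686 peaks outside coding genes lay at a median of 24770.5 bp from the nearest, with 169 within 10000 bp, 117 beyond 100000 bp and 8 beyond 500000 bp. The farthest was 948192 bp from Zeb2, a repressor of epithelial genes (chr2:46065634-46065760), with 11, 6, 9 and 5 in vehicle and 10, 9, 7 and 8 in myoglobin. The table's own limit was visible in the distances. No assigned peak lay farther than 5178 bp from the start given for it. The peak at that distance had Pkd2l1 as its nearest coding gene, 18578 bp away. The unassigned peak closest to a start that the table names was at 5107 bp, in Pax2, a transcription factor of kidney development (chr19:44750885-44750992, height 10.9), and only 2 unassigned peaks were closer than 5200 bp. The median was 95623.5 bp.

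Coding starts at the end of a gene span but without an assigned gene included those of Atf3 and Dusp1. The peak 125 bp from the start of Atf3, a stress-induced transcription factor (chr1:191183240-191183677), had 30, 41, 30 and 34 in vehicle and 36, 43, 32 and 40 in myoglobin. The peak 44 bp from the start of Dusp1, a phosphatase that shuts off MAP kinases and a known glucocorticoid target (chr17:26508408-26508625), had 13, 9, 14 and 18 in vehicle and 9, 12, 11 and 14 in myoglobin. The log2 difference, myoglobin minus vehicle, was 0.16 at Atf3 and -0.19 at Dusp1, and neither passed the limma test (adjusted p = 0.903 at Atf3). Both peaks were open in all 8 libraries, with groups that overlapped.

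Ppp2r5a, a regulatory subunit of protein phosphatase 2A, had 52.8 ± 8.18 in vehicle and 48.8 ± 5.74 in myoglobin (SD, n = 4 each). Hmgb1, a chromatin protein released by dying cells, had 26 ± 1.83 and 22.5 ± 1.91. Sirt1, a deacetylase, had the low values of 4.5 ± 3.11 and 4.25 ± 2.06. Only Hmgb1 among these 3 had a difference larger than the SD of its groups, and its groups overlapped. None of the 3 passed the limma test (adjusted p = 0.890 at Hmgb1).

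Among inner starts, the peak 33 bp from a start 6543 bp inside Hif1a, the hypoxia-inducible factor, had 41.5 ± 0.58 in vehicle and 48.5 ± 9.33 in myoglobin (SD, n = 4 each). Its log2 difference of 0.20 did not pass (limma, adjusted p = 0.83), and the spread in myoglobin exceeded the difference. The peak 11 bp from a start 8144 bp inside Slc6a19 had 52, 50, 62 and 58 in vehicle and 51, 58, 50 and 49 in myoglobin. Mast3, a serine/threonine kinase, had 65 ± 9.42 and 50.3 ± 3.20 at a start 12615 bp inside the gene, a difference that did not pass. Of the 203 starts, 28 belonged to genes that the table also named at another peak.

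Unassigned peaks took a nearly constant share of every library. Their share of the total value was 20.55, 19.97, 21.0 and 20.5% in vehicle replicates 1 to 4 and 20.7, 20.6, 20.9 and 19.4% in myoglobin replicates 1 to 4. The means were 20.5 ± 0.43% and 20.4 ± 0.72% (SD, n = 4 each), a difference of -0.094 percentage points (exact two-sided permutation test, p = 0.886, adjusted p = 0.971 over 5 shares, where the smallest possible p is 0.0286). The shares at starts, in coding spans, in noncoding spans and outside spans gave p from 0.657 to 0.971 by the same exact test. The median unassigned value was 11 to 13 in each library and the median assigned value 17 or 18. On the log2 scale the unassigned median was lower by 0.43 ± 0.11 (SD, n = 8) in 8 of 8 libraries, with an exact sign-flip p of 0.0078. As the same peaks were compared in every library, this p too shows only that the gap repeated.

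**Figure D2:**
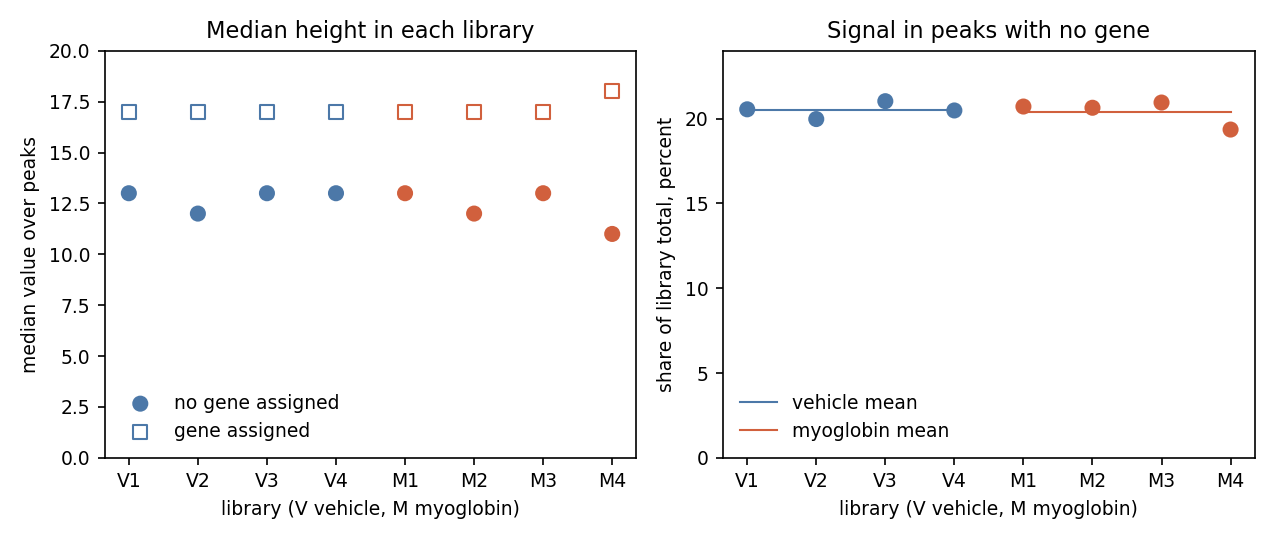
Left, median deposited value over unassigned (filled) and assigned (open) peaks in each library (V, vehicle; M, myoglobin; replicates 1 to 4); right, percent of each library's total value in unassigned peaks, with group means as lines. Unassigned medians run from 11 to 13 against 17 or 18, and the shares run from 19.4 to 21.0% with overlapping groups.

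Depth went with treatment. From how often each whole number occurred, vehicle libraries held an estimated 130568 to 200680 reads in all peaks and myoglobin libraries 67609 to 123453. In unassigned peaks the estimates were 27454 to 40080 and 14162 to 25568. A value of 1 stood for 0.536 to 1.60 reads. Unassigned peaks at 0 numbered 0 to 7 per vehicle library, and 2, 17, 22 and 5 in myoglobin replicates 1 to 4. The spread between replicates fell with height and was like that of assigned peaks. At heights of 5 to 10 the median SD of log2 values was 0.44 in vehicle and 0.53 in myoglobin for unassigned peaks, and 0.44 and 0.50 for assigned peaks. At 30 to 50 it was 0.21 and 0.28, against 0.19 and 0.25.

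The share of peaks without a gene varied between chromosomes, from 19.3% on chromosome 17 (59 peaks) to 30.6% on chromosome 14 (71 peaks), with a median of 25.3% over 20 chromosomes. Chromosome 4 held the most (154) and chromosome X the fewest (22), with the lowest median height, 9. The median height was highest on chromosome 12, at 16.6. On chromosome 18, with 52 peaks, distances to RefSeq starts were not analysed here.

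**Figure D3:**
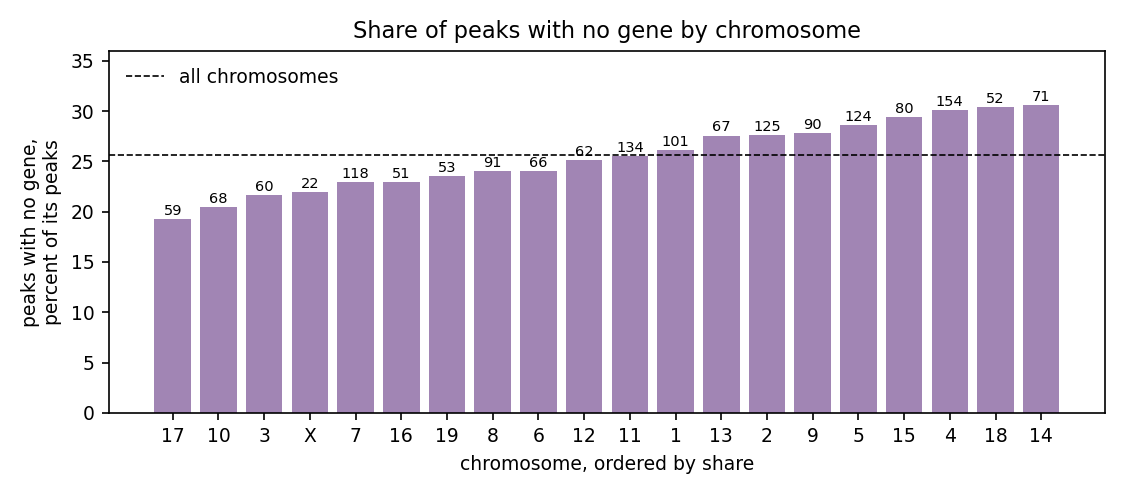
Percent of the peaks on each chromosome that had no gene assigned, ordered by that percent, with the number of unassigned peaks above each bar and the value over all chromosomes as a dashed line. The bars run from 19.3% (chromosome 17) to 30.6% (chromosome 14).

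Unassigned peaks were mostly solitary. The median gap between neighbours on a chromosome was 513777 bp, and the smallest 59 bp. The median distance from an unassigned peak to the nearest assigned peak was 95418.5 bp, and 100 (6.07%) had an assigned peak within 10 kb. No unassigned peak lay closer than 5107 bp to the start of any assigned gene. Of assigned peaks, 87.1% lay within 1000 bp of their start. The scarcity of close assigned neighbours thus follows in part from how genes were assigned. Joining neighbours at most 10 kb apart gave 87 groups, 81 of them pairs, that held 182 unassigned peaks (11.04%), against 14.7% of assigned peaks joined in the same way. At 2 kb there were 33 pairs (4.0% of unassigned against 8.56% of assigned peaks), and at 50 kb there were 192 groups (26.7% against 42.7%). Unassigned peaks were also fewer than assigned peaks, and the part of their number in these shares was not tested.

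Only 6 groups at 10 kb held 3 or more peaks, and the largest held 4. A group of 4 spanned 12962 bp between Lrrc74a and Irf2bpl (chr12:86824001-86836963). Its tallest peak had 33, 40, 52 and 42 in vehicle and 40, 32, 26 and 42 in myoglobin. Another peak of the group had 19, 21, 18 and 13 in vehicle and 16, 5, 6 and 14 in myoglobin. At a gap of 50 kb the same stretch became a group of 8 over 93402 bp (chr12:86801323-86894725), with heights from 11.4 to 38.4. In that group 6 of 8 peaks had a log2 difference below 0, the range was -0.86 to 0.14, and none passed (limma, lowest adjusted p = 0.435).

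A group of 3 lay in Pak4, a kinase of the actin cytoskeleton (chr7:28570311-28578043). Its tallest peak had 49, 49, 57 and 61 in vehicle and 50, 57, 34 and 49 in myoglobin, the middle peak 30, 26, 34 and 27 against 22, 41, 22 and 20, and the lowest 9, 7, 8 and 7 against 15, 8, 19 and 10. The other group of 4, on the side of Ahdc1 (chr4:133084361-133103859), was low throughout, with no library above 26. No peak of a group of 3 or more passed the test.

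Myoglobin was compared with vehicle at every peak by limma on log2(value + 1), with Benjamini-Hochberg adjustment over all 6425 peaks and a threshold of 0.05. Values at 9 unassigned peaks rose and at 2 fell, 0.667% of 1648, against 5 of 4777 assigned peaks (0.105%); over all peaks 0.249% passed, 0.202% higher and 0.0467% lower. The difference between the 2 shares was not tested, and the shares include peaks near 0 in vehicle, described below. At an unadjusted p under 0.05 there were 152 unassigned peaks (9.22%, 63 higher and 89 lower), against 7.03% of assigned and 7.6% of all peaks. Groups did not overlap at 52 unassigned peaks (3.16%, 23 above and 29 below), near the 3.04% over all peaks. The median log2 difference was -0.05 (quartiles -0.28 and 0.18) for unassigned and -0.02 for all peaks, and 43.8% of unassigned peaks were above 0, against 48.4% of assigned. The median rested in part on myoglobin replicate 4: without it the values were -0.01 for unassigned and -0.02 for all peaks. At a height of at least 10 they were -0.02 and -0.01.

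**Figure D4:**
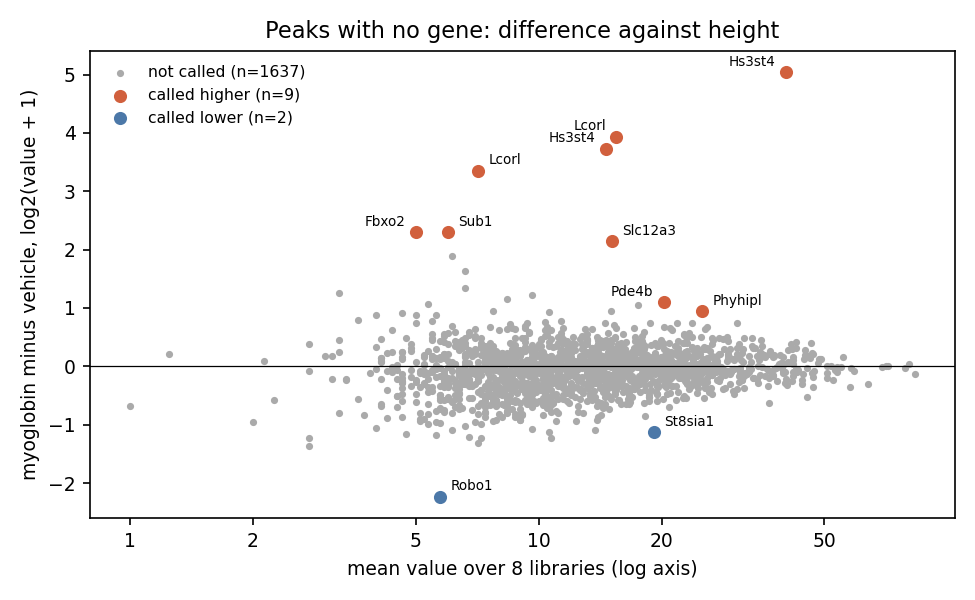
Log2 difference (myoglobin minus vehicle, log2(value + 1)) against the mean value over 8 libraries (log axis) for 1648 unassigned peaks; grey points did not pass the limma test, and coloured points passed and carry the nearest coding gene. The 9 peaks that rose run from 0.94 to 5.04, and the 2 that fell are Robo1 (-2.23) and St8sia1 (-1.13).

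The rises with the largest differences were at peaks with almost no signal in vehicle. The same peak set served all libraries, so such peaks may be in it only through their myoglobin signal. Neither their limma p-values nor the count of rises allows for that selection. In Hs3st4, which encodes a heparan sulfate sulfotransferase, the peak at chr7:124294049-124294267 had 1, 1, 3 and 1 in vehicle and 58, 72, 99 and 87 in myoglobin. The log2 difference was 5.04 ± 0.30 (SE, limma adjusted p = 3.31e-25), and about 240 estimated reads in myoglobin stood against at most 9 in vehicle. A neighbouring peak in the same gene (chr7:124272958-124273117) had 1, 1, 4 and 0 in vehicle and 25, 26, 39 and 21 in myoglobin (difference 3.73). Every myoglobin library was above every vehicle library at both.

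In Lcorl, a gene named for a ligand-dependent nuclear receptor corepressor, the peak at chr5:45730436-45730644 had 1 in each vehicle library and 36, 26, 24 and 34 in myoglobin (difference 3.93, limma adjusted p = 6.50e-13). The next peak (chr5:45731358-45731483) had 1, 0, 1 and 0 in vehicle and 13, 12, 11 and 19 in myoglobin (3.35). The members of the Hs3st4 and Lcorl pairs moved the same way, and peaks of 1 gene are not independent. Where vehicle is near 0, these differences depend on the pseudocount.

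In Slc12a3, whose product takes up sodium chloride in the distal convoluted tubule and is blocked by thiazides, 1 of 2 unassigned peaks rose. At chr8:94365575-94365822 the values were 3, 4, 10 and 4 in vehicle and 23, 34, 24 and 19 in myoglobin, a difference of 2.14 ± 0.32 (SE, limma adjusted p = 3.29e-06). The other Slc12a3 peak (chr8:94363424-94363560) had 5, 14, 9 and 10 in vehicle and 7, 2, 4 and 8 in myoglobin, a difference of -0.80 ± 0.41 (SE) that did not pass (adjusted p = 0.653). The groups separated at the former and overlapped at the latter.

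Pde4b, a phosphodiesterase that degrades cyclic AMP, rose at chr4:102494347-102494501, from 12, 8, 18 and 12 in vehicle to 21, 40, 30 and 21 in myoglobin (1.10 ± 0.25 SE, limma adjusted p = 0.0200). The Phyhipl peak whose upstream bases are printed above (chr10:70599397-70599699), 257 bp from the start, had 13, 21, 20 and 14 in vehicle and 33, 26, 39 and 35 in myoglobin (0.94 ± 0.22 SE, limma adjusted p = 0.0207). It was the only peak at a RefSeq start among the 11. In both, all myoglobin libraries were above all vehicle libraries.

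Low peaks made up the rest of the rises. A peak 26408 bp from Fbxo2, which encodes a ubiquitin ligase subunit for glycoproteins (chr4:148192828-148192926), had 1 in each vehicle library and 10, 9, 11 and 6 in myoglobin (2.29, limma adjusted p = 0.0175). A peak 25044 bp from Sub1, a transcriptional coactivator (chr15:11956175-11956292), had 1, 0, 2 and 1 in vehicle and 5, 3, 26 and 10 in myoglobin (2.30, limma adjusted p = 0.0459). Their myoglobin values rested on an estimated 28 and 31 reads, and myoglobin replicate 3 stood above the other libraries at Sub1.

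Values fell at St8sia1, the ganglioside GD3 synthase (chr6:142957043-142957380), from 26, 22, 35 and 23 in vehicle to 12, 14, 7 and 14 in myoglobin (-1.13 ± 0.26 SE, limma adjusted p = 0.0175). They fell at Robo1, a receptor for Slit ligands (chr16:72629918-72630022), from 18, 6, 5 and 10 to 2, 5, 0 and 0 (-2.23 ± 0.55 SE, limma adjusted p = 0.0459), with about 5 reads in myoglobin. The groups separated at St8sia1 and overlapped at Robo1.

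**Figure D5:**
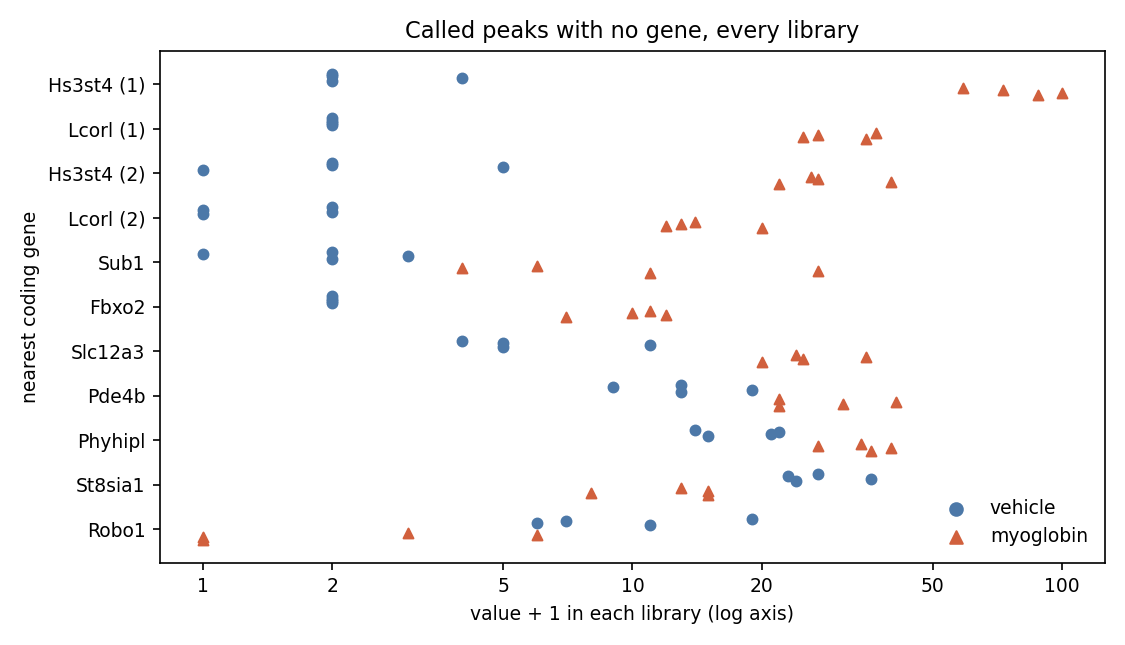
Value + 1 (log axis) in each of 4 vehicle libraries (circles) and 4 myoglobin libraries (triangles) for the 11 unassigned peaks that passed the limma test, named by nearest coding gene, with the higher Hs3st4 and Lcorl peak numbered 1. The groups are apart at 10 of the 11 peaks and overlap at Robo1.

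Of the 11 peaks, 8 were in coding spans, their widths ran from 98 to 337 bp, and 6 had a vehicle mean under 3. Such low vehicle means occurred at 19 unassigned peaks (1.15%) and 15 assigned peaks (0.314%), and 1 of these 15 passed. Myoglobin means under 3 occurred at 13 unassigned and 18 assigned peaks. Peaks this low in vehicle may be in the set only through their myoglobin signal, as said above. None of the 20 peaks with a height of at least 50 passed. When each library was left out in turn, both Hs3st4 peaks, both Lcorl peaks and the risen Slc12a3 peak passed in 8 of 8 fits. Pde4b no longer passed without vehicle replicates 1, 2 or 4 or myoglobin replicate 2, Fbxo2 without vehicle replicate 1 or myoglobin replicates 1, 2 or 3, and Phyhipl without vehicle replicates 1 or 4 or myoglobin replicates 1, 3 or 4. Sub1 was lost without vehicle replicates 1, 2 or 4 or myoglobin replicates 3 or 4, St8sia1 without any 1 vehicle replicate or myoglobin replicate 3, and Robo1 without any 1 vehicle replicate or myoglobin replicates 3 or 4. Over these fits the log2 difference ran from 1.79 to 2.704 at Sub1 and from -2.75 to -1.88 at Robo1. Depth and treatment cannot be told apart in this design.

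Of 1065 unassigned peaks with a height of at least 10, another 26 (2.44%) had groups that did not overlap but did not pass, 8 higher (0.751%) and 18 lower (1.69%) in myoglobin. Over all peaks of that height the same held for 2.92%, 1.37% higher and 1.56% lower, so the unassigned share in both directions together was not above the background. Hivep3, a zinc finger gene (chr4:119937843-119938168), had 16, 9, 13 and 7 in vehicle and 23, 26, 28 and 18 in myoglobin, with a limma adjusted p of 0.055. It passed in 4 of the alternative fits, with only peaks of that height tested (adjusted p = 0.0422), with a pseudocount of 5 (0.0317), with library weights (0.0218) and without myoglobin replicate 4 (0.0478), and over all 18 the adjusted p ran from 0.0218 to 0.372. Nav2, which encodes a cytoskeleton-associated protein of neurite growth (chr7:49601693-49601844), had 16, 12, 14 and 18 in vehicle and 10, 8, 2 and 6 in myoglobin. Trerf1, a transcriptional regulator of steroidogenic genes (chr17:47177803-47178044), had 23, 18, 18 and 15 against 12, 12, 9 and 3. Their log2 differences were 1.06 ± 0.27, -1.23 ± 0.35 and -1.09 ± 0.31 (SE), and Nav2 and Trerf1 shared a limma adjusted p of 0.174.

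Kidney and stress gene lists reached few unassigned peaks. Counting peaks whose nearest coding gene was within 50 kb, none was near the 16 proximal tubule genes, the 16 haem, iron and NRF2 genes, or the fibroblast or immune markers. The labelled tubule identity thus cannot be checked from the proximal tubule list in these peaks. Slc6a19, a proximal tubule gene whose peak at an inner start is given above, was not on that list. Genes of the loop of Henle, distal tubule and collecting duct had 4 peaks, at Slc12a3 and at Trpm6, a magnesium channel of the distal convoluted tubule, and 1 passed, higher (list median log2 difference -0.31, against -0.02 over all peaks). Of the 4, the Slc12a3 peaks are given above. The Trpm6 peaks had log2 differences of -0.17 and -0.45 and did not pass (limma adjusted p = 0.938 and 0.741).

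Among the kidney epithelial transcription factors, peaks lay near Emx2, Grhl2, Pax2 and Tfcp2l1, and none of these passed. The Tfcp2l1 peak, at a factor of the distal nephron, had 31, 29, 32 and 20 in vehicle and 21, 23, 21 and 19 in myoglobin (-0.38 ± 0.21 SE). The tubule injury list had 3 peaks, near Itgav, Klf6 and Krt18 (median 0.31). A peak lay 11061 bp from Krt18, a keratin of simple epithelia, and 263 bp from a start of the noncoding gene Gm41404. It had 29, 29, 31 and 31 in vehicle and 38, 44, 30 and 39 in myoglobin. The groups overlapped at 30 and 31, and the peak did not pass (limma adjusted p = 0.710).

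The immediate early and AP-1 list had 6 peaks, near Atf3, Fos, Ier2, Ier3 and Jun (median 0.17), and none passed. A peak lay 23419 bp from Jun, an AP-1 subunit, and 67 bp from a start of the noncoding gene Junos. It had 8, 7, 7 and 10 in vehicle and 9, 12, 13 and 18 in myoglobin (0.61 ± 0.33 SE, limma adjusted p = 0.673). The glucocorticoid targets had 3 peaks, in Dusp1 and Sgk1 and 13575 bp from Pdk4 (median -0.19). The Sgk1 peak, at a kinase that activates sodium transport, had 22, 13, 9 and 14 in vehicle and 10, 20, 19 and 19 in myoglobin. NF-kB genes had 1 peak, 29156 bp from Birc3, with 8, 7, 7 and 11 against 12, 3, 9 and 9.

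Markers of other cell types were rare, with 2 peaks in Flt1, an endothelial VEGF receptor (median -0.46). Another peak lay 17432 bp from the podocyte factor Wt1, inside the noncoding gene Wt1os. The lower Flt1 peak had 12, 6, 8 and 9 in vehicle and 6, 2, 9 and 5 in myoglobin, and the Wt1 peak 5, 9, 11 and 7 against 16, 6, 0 and 9. None of these 3 passed, and their part in other results was not tested.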

How the data were processed

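ATAC-seq peaks were analysed in 4 vehicle and 4 myoglobin libraries. The deposited values are treated as a score: whole numbers that look like reads scaled between libraries and rounded. Each column's factor, and from it the estimated reads, was fitted to how often each whole number occurred, a method tested on simulated data. Per the submitters' processing notes, the build was mm10 and the tools included DESeq2 1.36.0, STAR 2.7.10a, featureCounts, Trimmomatic 0.39 and Picard 3.0.0. Their roles, the peak caller and any Tn5 shift are not given in the sources used here. Peaks formed 1 set for all libraries.

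Here limma 3.58.1 (R 4.3.3) was fitted to log2(value + 1) over all 6425 peaks without a filter, with a variance trend and Benjamini-Hochberg adjustment. This scale understates differences at low peaks. Of the degrees of freedom, 78.5 came from the prior over all peaks and 6 from the 8 libraries. Single measures used exact permutation or sign-flip tests. Gene spans, starts and upstream sequences came from RefSeq tables of GRCm38.p6. Unassigned peaks and the 12 gene lists were chosen with earlier results of these data known, and some list results are not reported here. Peaks were named if they passed, were among the tallest, widest, narrowest or most remote, lay in the largest groups, were the leading non-overlapping peaks, or belonged to a list. Starts of known genes were named after their values were seen. Alternatives were other scalings, pseudocounts, a height filter, robust variance, library weights, a replicate block and left-out libraries.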

Additional observations from a re-analysis of the deposited data

Results flagged for a closer look

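Of 98 sets of 4 libraries examined, 5 had 1 library far from the other 3, by Dixon's 95% critical value for the gap over the range, and chance gives about 1 in 20. At the middle Pak4 peak, myoglobin replicate 2 had 41, against 20 to 22 in the others. At the taller Hs3st4 peak, vehicle replicate 3 had 3, against 1 in each of the others. At the risen Slc12a3 peak, vehicle replicate 3 had 10, against 3 to 4. At the Sgk1 peak, myoglobin replicate 1 had 10, against 19 to 20. The log2 gap between the unassigned and assigned medians was -0.47 in vehicle replicate 2, against -0.36 in the other vehicle libraries. The unassigned medians behind it were the whole numbers 12 and 13, so this flag rests on rounded values.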

How the results depend on the processing

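Among 18 alternatives, peaks that rose numbered 9 as reported, 5 with a pseudocount of 0.1 and 5 to 9 with 1 library left out. They numbered 10 with cyclic loess, and 11 with a pseudocount of 5 or with library weights. Peaks that fell numbered 2 as reported, and 1 with cyclic loess, with a pseudocount of 0.1 or with a mean value of at least 10. They numbered 0 to 3 with 1 library left out and 6 without myoglobin replicates 2 and 3, the shallowest. With the replicate number as a replicate block, 6 rose and 0 fell, all 6 of them among the 11. Same-numbered libraries had correlated deviations of only -0.006 to 0.031, so the numbers were not taken as pairs. The share difference (-0.094 points) was -0.27 to 0.26 with 1 library left out, 0.078 for peaks with a mean of at least 10 and 0.00063 for unassigned peaks over 1000 bp from a coding span. None of these passed, and within-number differences gave an exact p of 0.875. The Birc3 difference (-0.10) was -0.31 to 0.26 with 1 library left out, above 0 without vehicle replicate 4 (0.03) or myoglobin replicate 2, and 0.32 without myoglobin replicates 2 and 3. The Wt1 difference (-0.57) was -1.08 to 0.28, above 0 without myoglobin replicate 3, and 0.58 without replicates 2 and 3. The cause was not tested. The log2 height gap to assigned peaks kept its sign, and was -0.12 per 100 bp of width. In every fit that tested them, the Hs3st4, Lcorl and risen Slc12a3 peaks passed.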

Other observations

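Of the 816 coding genes with an unassigned peak inside their span, 698 had 1, 100 had 2, 11 had 3, 4 had 4 and 3 had 5. The 3 genes with 5 were Arhgef10l, Gse1, which encodes a protein of chromatin complexes, and Tns1, which encodes a focal adhesion protein. All 5 Tns1 peaks had log2 differences below 0, from -0.75 to -0.09, and none passed the limma test. In Prkag2, a regulatory subunit of AMP-activated protein kinase, all 3 peaks were above 0, from 0.30 to 0.54, and none passed. These genes were picked after their values were seen, and peaks of 1 gene are not independent.

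The largest rises that did not pass were also at low peaks, and were picked after their values were seen. A peak 176528 bp from Matn1 had 1, 1, 3 and 3 in vehicle and 13, 5, 15 and 8 in myoglobin (limma adjusted p = 0.0569). A peak 19630 bp from Cdcp1, a transmembrane protein of epithelial cells, had 1, 2, 4 and 4 in vehicle and 17, 6, 11 and 8 in myoglobin (limma adjusted p = 0.145). At both, every myoglobin library was above every vehicle library.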
